A study of Danio rerio with 6 samples.

Results

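Open chromatin near genes for developmental transcription factors was examined in adult zebrafish blood. The regions were taken from the study's annotated comparison table, in which every region was listed as more open in cortisol-treated fish and was named after the gene with the nearest transcription start. Regions were kept where that name began with hox, pax, sox, tbx, dlx, nkx, lhx, irx, meis, pbx or fox, or with gata or the prefix of the sine oculis homeobox genes (six1b and its relatives) and a digit, leaving out foxo1a, foxo3b and gata1a. This gave 70 of the 9546 regions of the table and 45 of its 6295 gene names. The 3 names foxred1 (an oxidoreductase of respiratory complex assembly), paxip1 and pbxip1b (partner proteins of other factors) share only a prefix with a family, which leaves 67 regions of 42 true family genes.

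The data are from 6 ATAC-seq libraries of blood from AB strain fish. Control fish received DMSO and treated fish 1 µM cortisol in their medium for the first 5 days of life, and both were then raised without treatment. Each group has 3 libraries, of which replicate 1 was drawn at 12 months of age, replicate 2 at 11 months and replicate 3 at 10 months. A figure legend of the paper describes each of these libraries as blood pooled from 6 fish, with males and females equally represented. The series text speaks of individual fish. By the paper's account the 3 libraries of a group are therefore pools, and the p-values below measure only the spread between these libraries.

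The families named here encode proteins that bind DNA and set regional identity or cell fate in the embryo. Hox, Pbx, Meis, Irx, Lhx, Nkx, Dlx and sine oculis proteins carry homeodomains, and Pax proteins a paired domain. Sox proteins carry an HMG box, Tbx proteins a T-box, Fox proteins a forkhead and Gata proteins zinc fingers. Some also act in blood: in the mouse Hoxb4 expands blood stem cells, Sox6 and Foxo3 act in red cell maturation, and Pbx proteins are partners of Hox and Meis proteins. Zebrafish red cells keep their nuclei, so blood chromatin comes largely from them. Of 18 red cell marker genes checked, 14 had a region in the table, among them hbaa1, alas2, slc4a1a and klf1. Of all protein-coding genes 20.6% did. Of the other lists, 2 of 8 thrombocyte, 1 of 12 myeloid, 2 of 15 lymphoid, 1 of 7 endothelial and 0 of 9 muscle, skin and nerve markers had one. Since the table holds only regions listed as higher after cortisol, a gene without a region there may still be open in blood. The marker lists were chosen with earlier results of these data known, so these counts are a description only.

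The libraries gave lists of 138146, 63072 and 29401 peaks for control replicates 1, 2 and 3, and of 49583, 56695 and 26905 peaks for cortisol-treated replicates 1, 2 and 3. In both groups the 10-month library had the shortest list. List scores are therefore not comparable between libraries, and each region was given a percentile. This is the rank of its highest overlapping peak among the 13835 merged regions in which all 6 libraries had a peak, where 100 is the strongest and 0 stands for no peak. In such bulk samples, fewer cells of a type and less openness per cell cannot be told apart.

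The families were unequally represented. Among the protein-coding genes of the RefSeq annotation, with foxo1a, foxo3b and gata1a left out on both sides, 4 of 6 pbx genes (pbx1a, pbx1b, pbx2 and pbx4), 6 of 11 irx genes, 2 of 5 meis genes, 3 of 11 lhx genes, 5 of 19 tbx genes, 6 of 26 sox genes and 13 of 60 fox genes had at least 1 region. The gata family had 1 of 7 (gata4), the nkx family 1 of 17 and the hox family 1 of 49. No pax gene (0 of 15), dlx gene (0 of 8) or sine oculis homeobox gene (0 of 13) had one. Over all families 42 of 247 genes had a region (17.0%), of which foxk2 and tbx6l were found in RefSeq only by an older name. By current names alone the share was 16.2%, beside 20.6% of all protein-coding genes counted the same way. With the 3 left-out genes, which hold 14 regions, the count was 45 of 250, with 15 of 62 fox and 2 of 8 gata genes.

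**Figure D1:**
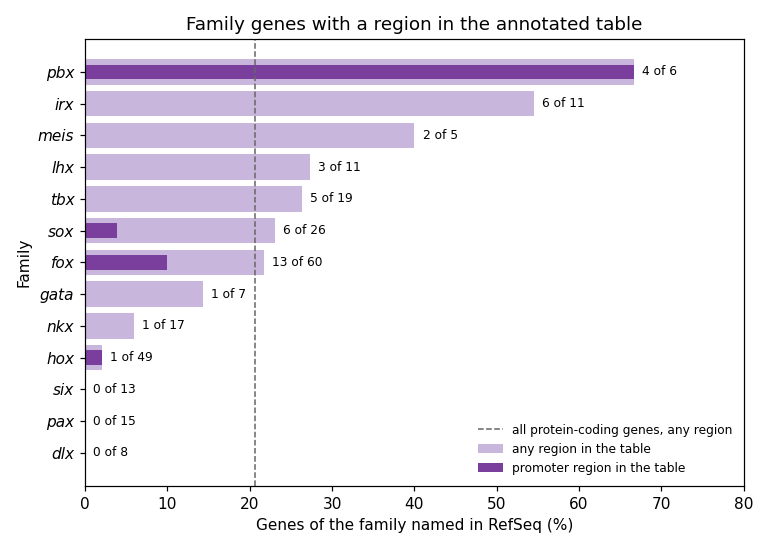
Share of each family's RefSeq-named genes (x axis, %) with any region in the table (light bars) or with a promoter region (dark bars), 1 row per family, with counts beside the bars. The dashed line is the share of all protein-coding genes with any region (20.6%). It does not apply to the dark bars, for which the share of all protein-coding genes was 14.4%. The genes foxo1a, foxo3b and gata1a are left out of the counts and of the family sizes, and all 4 pbx genes with a region also had a promoter region.

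Among the family genes kept, those with a promoter region were 4 pbx genes, 6 fox genes (foxk1, foxk2, foxm1, foxn2b, foxo3a and foxp1a), sox4b and hoxb4a. Each of the 3 left-out genes also had one. Without those 3, 12 of 247 family genes had a promoter region (4.86%), beside 14.4% of all protein-coding genes by current names. With paxip1 and pbxip1b, 14 of the 70 regions carried the promoter annotation, which is 20.0% (exact Clopper-Pearson 95% interval 11.4 to 31.3). Of all regions listed, 47.1% did. Intergenic regions made up 64.3% of the 70 (45 regions) and 35.4% of the table. A further 8 regions lay in introns and 3 in exons. These intervals cover counting only, and regions of 1 gene are not independent, so no test of the shares was made. The irx, tbx, lhx, meis and nkx genes and gata4 had no region in the table annotated as promoter.

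The distance from a region's centre to its assigned start site was long for most of the 70. Its median was 43.1 kb for the 70 regions and 0.551 kb for the 9421 regions of the table with a distance. Within 1000 bp of a start lay 16 of the 70 regions (22.9%), beside 54.4% of the table. Beyond 10000 bp lay 47 (67.1%), beside 29.5%, and beyond 100000 bp lay 12 (17.1%), beside 5.10%. The farthest were a region 196 kb from sox4a and another 196 kb from pbx1a. The regions were about as long as those of the table, with a median of 365 bp beside 373 bp. At such distances the nearest gene is only a name for the region, and which gene a region acts on, if any, was not measured.

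**Figure D2:**
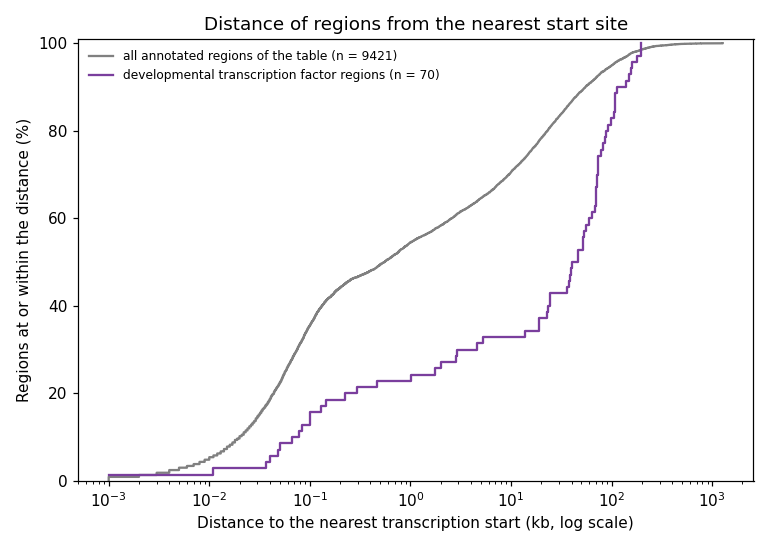
Cumulative share of regions (y axis, %) at or within a given distance of the nearest transcription start (x axis, kb, log scale), for the 70 developmental transcription factor regions and the 9421 annotated regions of the table. The median is 43.1 kb for the former and 0.551 kb for the latter.

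For 30 of the 45 genes no listed region lay within 1000 bp of the start, and for 28 of them every listed region lay beyond 10000 bp. Most genes had few regions: 31 had 1, 7 had 2, and 7 had 3 or more. The genes foxn4, foxo3a, gata4 and sox4b had 4 each and pbx1a, sox6 and tbx6l had 3 each, together 25 of the 70 regions. Some regions were close to each other, since 26 lay within 10000 bp of another and 8 shared a merged peak with another, so that the 70 regions stand for 66 separate peaks.

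The 70 regions, like the table, spanned nearly the whole range of peak strength. Their median percentile was 65.4, 54.7 and 64.7 in control replicates 1, 2 and 3, a mean of 61.6 ± 6.00 (SD, n = 3). In the cortisol-treated libraries it was 66.1, 63.9 and 66.5, a mean of 65.5 ± 1.39 (SD, n = 3). The corresponding medians of the whole table had a mean of 61.9 ± 3.44 (SD, n = 3) in controls and 65.0 ± 2.24 (SD, n = 3) in cortisol-treated libraries, so the regions were of about the strength usual in the table. Over the control libraries 7 regions had a mean percentile above 90 (10.0%, beside 12.2% of the table) and 14 had one below 25. The table's share below 25 was not counted. A peak was present in every library for 63 of the 70, and for 93.1% of the table. The missing peaks fell in control replicates 1 (4 regions) and 2 (5 regions), whose peak lists were the longest. Over the table these libraries also had the fewest regions with a peak, 9076 and 9150 of the 9546. The table holds only regions listed as higher after cortisol, so this placing is no result about these genes. Some of these gaps had a peak close by. In control replicate 2 a foxa3 region had none, while another region of the same merged peak was at 82.7. The hoxb4a gap is described below.

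**Figure D3:**
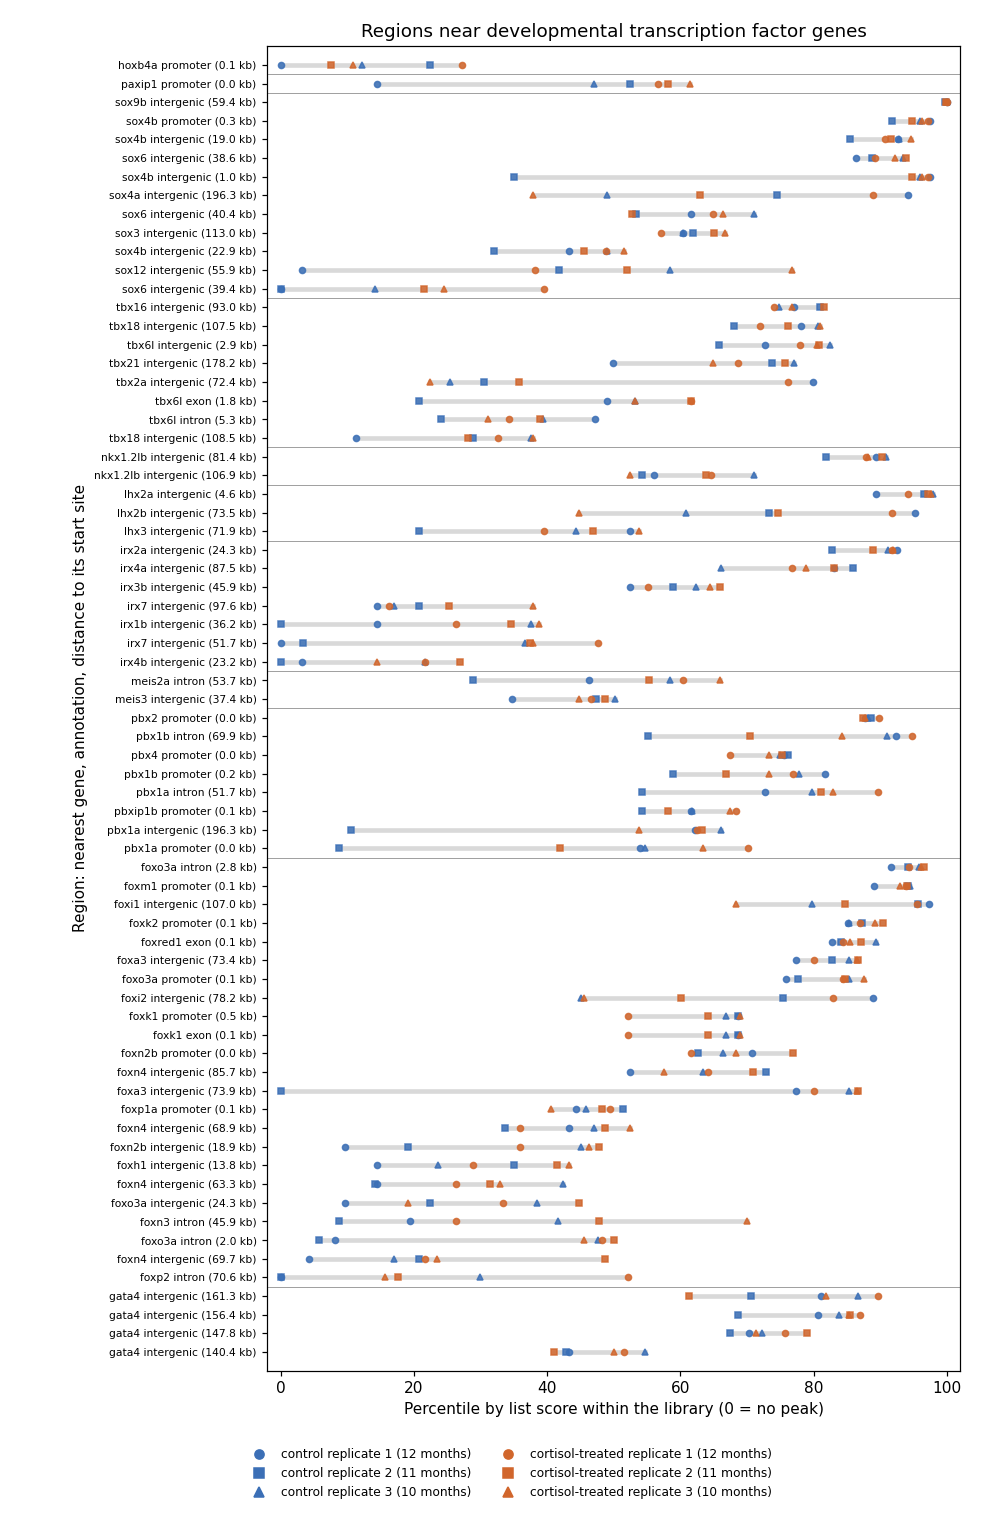
Percentile by list score within the library (x axis, 0 = no peak) of each of the 70 regions, 1 row per region with its gene, annotation and distance, grouped by family. Blue symbols are control and orange symbols cortisol-treated libraries, symbol shape is the replicate and its age, and the grey bar spans the 6 libraries. The sox9b region sits above 99 in every library, while the hoxb4a promoter stays below 28.

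The strongest was an intergenic region 59.4 kb from sox9b, which encodes an HMG-box factor of cartilage and neural crest, on chromosome 3 from 62288861 to 62289210 (GRCz10). Its percentile was 99.9, 99.6 and 99.9 in control replicates 1, 2 and 3 and 99.9 in each cortisol-treated library. By mean control percentile it ranked 36 of the 9546 regions of the table. All 6 libraries were within less than 1 percentile point of each other, and at neither candidate position of the sox9b start was the percentile above 6.77.

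The gene sox4b, an HMG-box factor related to the mouse Sox4 of lymphocyte development, had both a strong promoter and a strong separate region farther away. Its promoter region on chromosome 16 from 67256 to 68293 was at percentiles of 97.4, 91.8 and 96.0 in control replicates 1, 2 and 3 and 97.2, 94.8 and 96.3 in cortisol-treated replicates 1, 2 and 3. The groups overlapped. A region 19.0 kb away had a control mean of 90.3 ± 4.22 and one 22.9 kb away 41.4 ± 8.58 (SD, n = 3). The fourth region, 1.02 kb from the start, shared its peak with the promoter in most libraries and was at 97.4, 35.1 and 96.0 in the controls, the low value being control replicate 2.

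The centres of the 3 sox6 regions lay within 2 kb of each other, and the regions differed widely. The outer regions, 40.4 and 38.6 kb from the start, had control means of 62.0 ± 8.82 and 89.5 ± 3.54 (SD, n = 3). The region between them had no peak in control replicates 1 and 2, and was at 14.2 in control replicate 3 and at 39.6, 21.5 and 24.5 in cortisol-treated replicates 1, 2 and 3. With a control mean of 4.73 it was the weakest of the 70. The start site of sox6 itself had no peak in any library.

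Among forkhead genes the strongest regions belonged to foxo3a, whose product acts in stress resistance, and foxm1, a driver of the genes of cell division. A foxo3a intron region 2.81 kb from the start was at 91.5, 94.2 and 95.8 in control replicates 1, 2 and 3 and at 94.3, 96.6 and 96.1 in cortisol-treated replicates 1, 2 and 3. The foxo3a promoter was lower, with a control mean of 79.6 ± 5.02, and a second intron region 2.01 kb from the start was the most uneven of the 4. It was at 8.21 and 5.79 in control replicates 1 and 2, 47.7 in control replicate 3, and 48.3, 49.99 and 45.5 in the cortisol-treated libraries. The foxm1 promoter was at 89.1, 94.2 and 94.5 in controls and 93.9, 94.0 and 92.9 in cortisol-treated libraries, so that the groups overlapped. The promoters of foxk1 and foxp1a, the latter related to a mouse gene of B cell development, had control means of 68.0 ± 1.08 and 47.2 ± 3.75 (SD, n = 3). The 4 foxn4 regions, 63.3 to 85.7 kb from that gene of retinal and spinal neurons, had control means from 14.0 to 62.9.

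The pbx genes encode homeodomain partners of Hox and Meis proteins. Of their 4 promoters, that of pbx2 was the strongest in controls and that of pbx1a the weakest. The pbx2 promoter was at 87.7, 88.6 and 88.2 in control replicates 1, 2 and 3 and at 89.8, 87.4 and 87.7 in cortisol-treated replicates 1, 2 and 3. The pbx4 promoter followed with a control mean of 75.6 ± 0.619, and the pbx1b promoter with 72.9 ± 12.2 (SD, n = 3). The spread of pbx1b covered the value of pbx4, so that pair cannot be put in order, whereas the control values of pbx2 all lay above those of the others. The pbx1a promoter was lowest and most variable, at 53.9, 8.80 and 54.7 in the controls and 70.2, 41.9 and 63.4 in the cortisol-treated libraries, with replicate 2 lowest in each group. An intron region of pbx1b 69.9 kb from the start, at 79.5 ± 21.2 (SD, n = 3), also had its lowest value in replicate 2 of each group.

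The only hox region was the promoter of hoxb4a on chromosome 3 from 23591018 to 23591243. It was weak, at 0, 22.4 and 12.2 in control replicates 1, 2 and 3 and 27.2, 7.62 and 10.8 in cortisol-treated replicates 1, 2 and 3. In control replicate 1 the listed interval held no peak, but a peak at percentile 21.2 lay within 500 bp of the start. The groups overlapped.

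The strongest LIM homeodomain region lay 4.60 kb from lhx2a, whose mouse relative acts in fetal liver blood formation, with a control mean of 94.6 ± 4.62. The lhx2b region, 73.5 kb away, had one of 76.4 ± 17.4 (SD, n = 3). Among the Iroquois genes, factors of heart and neural patterning, the irx2a region (24.3 kb away) had a control mean of 88.8 ± 5.31 and the irx4a region (87.5 kb away) 78.3 ± 10.7 (SD, n = 3). The irx1b, irx4b and 51.7 kb irx7 regions each lacked a peak in 1 control library and had control means of 17.3, 8.27 and 13.4. The strong and the weak Iroquois regions were thus in the same family and all intergenic. The meis2a and meis3 regions, near genes of the other homeodomain partners of Hox proteins, were at 44.5 ± 14.9 and 44.1 ± 8.21 and did not differ beyond their spread.

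All 4 gata4 regions lay 140 to 161 kb from the gene, a zinc finger factor of heart and gut, on chromosome 20 between 53302670 and 53324034. From nearest to farthest, their control means were 46.9 ± 6.70, 70.0 ± 2.37, 77.7 ± 7.98 and 79.5 ± 8.19 (SD, n = 3). Near the start of gata4 there was a peak in control replicates 1 and 2 alone, at percentiles of 29.0 and 1.52. The 3 regions of tbx6l, a T-box gene of embryonic mesoderm, lay on chromosome 5 between 41677312 and 41685853 with control means of 73.6, 41.0 and 36.9. They were 4.52 to 12.8 kb from a region named after mir144 and 5.74 to 15.0 kb from a pair named after mir451a, both red cell microRNA genes. Other T-box regions were intergenic and far from their genes, such as one 93.0 kb from tbx16, a mesoderm factor, at 77.5 ± 3.11, and one 107 kb from tbx18, at 75.6 ± 6.63 (SD, n = 3). Both nkx1.2lb regions, 107 and 81.4 kb from that homeobox gene, were also intergenic, at 60.4 ± 9.19 and 87.4 ± 4.86.

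By median percentile among the common regions the promoter regions were higher than the intergenic ones, but single regions overlapped widely. Mean control percentiles ran from 11.5 to 95.1 for promoter regions and from 4.73 to 99.8 for intergenic ones. In controls the 14 promoter regions had a median percentile of 69.9 ± 3.84 and the 45 intergenic regions 59.4 ± 4.41 (SD over 3 libraries of each library's median). Promoter minus intergenic was 11.5, 11.3 and 8.61 points in control replicates 1, 2 and 3, and 4.45, 7.78 and 13.7 points in cortisol-treated replicates 1, 2 and 3. It was above 0 in each of the 6 libraries, with a mean of 10.5 ± 1.63 in controls and 8.63 ± 4.66 in cortisol-treated fish (SD, n = 3). The control mean was 3.14 ± 1.64 when regions were ranked in each library's own list. Over the whole table the same difference was 1.89 ± 2.36 in controls, and its sign varied between libraries. The 8 intron regions were the most variable, at 42.1 ± 13.9 in controls and 58.9 ± 8.01 in cortisol-treated libraries. The SDs are over libraries of the same regions and do not cover the spread between regions. The promoter regions include those of paxip1 and pbxip1b, and the difference was not computed without them. No test was made, since regions are not replicates.

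Most genes with no region listed at the start site had little or nothing there. Starts other than those assigned to a listed region were not searched. The 15 genes with a region listed at the start each had a peak within 500 bp of it in all 6 libraries. For another 8 genes the listed regions lay away from the start and fixed its position. Of these, irx7, sox6 and tbx6l had no peak there in any library, foxa3, foxn4 and tbx18 had one in 1 library, and gata4 and nkx1.2lb in 2. None of the 8 had one in all 6 libraries, beside 141 of 512 other genes of this kind in the table (27.5%). No peak in any library was found for 3 of the 8 (37.5%), beside 34.4% of those other genes. With 8 genes this is a description. For the remaining 22 genes the single listed region left 2 candidate positions for the start. For irx3b, lhx2a, lhx2b, lhx3, meis3 and tbx16 neither candidate had a peak in any library, 12 genes had peaks in 1 to 4 libraries at a percentile of at most 12.9, and foxp2, irx2a, sox12 and sox4a had a peak in all 6 at 1 of the candidates.

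**Figure D4:**
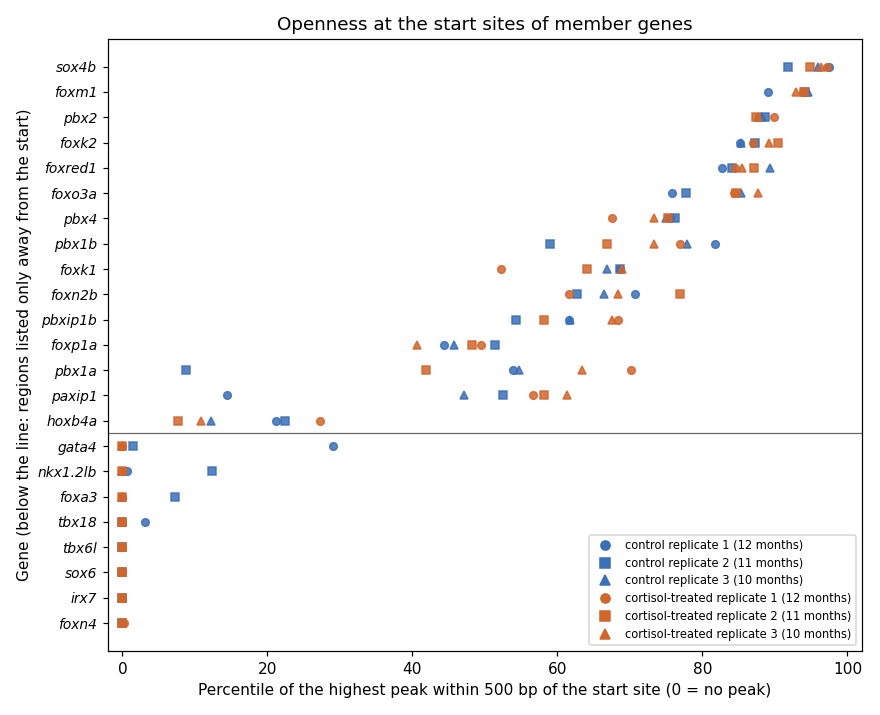
Percentile of the highest peak within 500 bp of the start site (x axis, 0 = no peak) in each library for the 23 genes whose start could be placed, with symbols for group, replicate and age. The 15 genes above the line have a region listed at the start and the 8 below it do not, where the highest value is 29.0, for gata4 in control replicate 1.

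Genes of the families placed on a list of blood roles were counted beside lists from outside the families. Of the 45 genes on this blood list, 18 had a region and 10 a promoter region (foxk1, foxm1, foxo3a, foxp1a, hoxb4a, pbx1a, pbx1b, pbx2, pbx4 and sox4b). Over all genes of these families the shares were 17.0% with a region and 4.86% with a promoter region. Over all protein-coding genes they were 20.6% and 14.4%. Of 36 blood transcription factors of other families 17 had a region and 10 a promoter region, among them myb, lmo2, runx3 and zfpm1. Of 29 cofactors and other homeobox genes 13 had a region and 9 a promoter region, including tle3a, tle3b, tcf3a and tcf3b. The median control percentile of the regions was 70.7, 64.2 and 65.4 for these lists in turn. Of the 12 family genes with a promoter region 10 were on the blood list, the others being foxk2 and foxn2b. The lists were chosen with earlier results of these data known, so this overlap is a description only.

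The comparison of cortisol-treated with control fish chose these regions, so it is described and not tested. The mean percentile was higher in cortisol-treated libraries for 55 of the 70 regions (78.6%), beside 79.0% of the table, and the median difference was 2.90 points. All cortisol-treated libraries lay above all controls for 6 regions, near foxn4, gata4, irx7, paxip1, pbx1a and sox6, and for 0 regions below, where 9.54% and 0.775% of the table did so. The gata4 region among them, 156 kb from the gene, was at 80.6, 68.6 and 83.7 in controls and 87.0, 85.4 and 85.2 in cortisol-treated libraries. The pbx1a intron region was at 72.7, 54.3 and 79.7 in controls and 89.6, 81.1 and 82.9 in cortisol-treated libraries, a difference of 15.6 points. The irx7 region went from 0, 3.36 and 36.7 to 47.7, 37.4 and 37.8, so that its control replicate 3 was close to the treated values. The count of 6 rose to 23 without control replicate 3, to 17 without cortisol-treated replicate 1 and to 10 without cortisol-treated replicate 3. With fewer libraries the groups separate more easily, and the table's shares were not counted for these settings. These rises therefore show nothing particular to the 70 regions. Libraries of the same replicate number share their age, and within these pairs the cortisol-treated library was higher in all 3 for 22 of the 70 regions (31.4%) and lower in all 3 for 3 (4.29%), beside 32.4% and 4.87% of the table. The sox12 region was one of the 22, at 3.16 and 38.1, 41.7 and 52.0, and 58.5 and 76.7 in control and cortisol-treated libraries of replicates 1, 2 and 3. The 3 lower in all pairs were the foxi1 and sox4a regions and the pbx4 promoter. In the same order, the foxi1 region was at 97.3 and 95.5, 95.6 and 84.7, and 79.7 and 68.3. When each region was ranked in the library's own list instead, the median difference was -0.44 points and 1 region did not overlap.

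Age was not used to choose the regions and could be tested, with the treatment as a covariate. Differences are in normal scores of the ranks, where 1 unit is 1 SD of all common regions. Of the 13835 common regions, 10.3% differed between 12 and 10 months (limma, Benjamini-Hochberg adjusted p under 0.05), made up of 8.13% higher and 2.13% lower at 12 months. Of the 65 regions near developmental genes that could be tested 7 passed, which is 10.8% and close to that background, so the count is no result about these genes. At an unadjusted p under 0.05 there were 13 (20.0%, from 12 separate peaks), beside 24.8% of all common regions. None of the 14 promoter regions tested passed. The share of all common promoter regions that passed was not counted, so this shows no difference between promoter and distal regions. Each replicate number stands for 1 age, and the 10-month libraries also had the shortest peak lists, so age, replicate and list length cannot be told apart. The 2 libraries of an age share a replicate number, and the paper describes the control fish as siblings of the treated fish. The test took these 2 libraries as independent. Its SEs and p-values therefore do not measure the spread between cohorts of 1 age.

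Within that count, 5 intergenic regions were higher at 12 than at 10 months, near sox4a, lhx2b, foxi1, foxi2 and tbx2a. Of these genes foxi1 and foxi2 are forkhead genes, foxi1 acting in ear and ionocyte formation, and tbx2a is a T-box repressor gene. The 5 regions were 205 to 390 bp long and lay 72.4 to 196 kb from those genes. The sox4a region, on chromosome 19 from 29401430 to 29401634, was at 94.1 in the control and 88.9 in the cortisol-treated library at 12 months, at 74.6 and 63.0 at 11 months, and at 49.0 and 37.8 at 10 months. The ages did not overlap, and the difference of 12 minus 10 months was 1.56 (SE 0.14, adjusted p = 0.00071 by limma). The lhx2b region went from 60.8 and 44.8 at 10 months to 95.1 and 91.8 at 12 months (difference 1.45, SE 0.15, adjusted p = 0.00076 by limma).

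The tbx2a region was at 25.4 and 22.3 at 10 months, 30.5 and 35.8 at 11 months and 79.9 and 76.1 at 12 months, so that most of its difference lay between the older ages. Its difference was 1.48 (SE 0.27, adjusted p = 0.0069 by limma). For foxi1 and foxi2 the differences were 1.16 and 1.21, with adjusted p-values of 0.00097 and 0.0013 by limma. The regions near sox12, an HMG-box gene, and lhx2a were lower at 12 than at 10 months. The sox12 region was at 3.16 and 38.1 at 12 months and 58.5 and 76.7 at 10 months (difference -1.55, SE 0.32, adjusted p = 0.013 by limma). The lhx2a region stayed above 89 in every library, and was lower at 12 months by 0.60 (SE 0.12, adjusted p = 0.014 by limma). Under 9 other settings or left-out libraries, sox4a, lhx2b, foxi1 and foxi2 passed in 9, tbx2a and sox12 in 7 and lhx2a in 5. The limma call for tbx2a was lost without control replicate 1 (adjusted p = 0.090) or cortisol-treated replicate 1 (0.10). That for sox12 was lost without control replicate 3 (adjusted p = 0.11 by limma) or cortisol-treated replicate 3 (0.062). That for lhx2a was lost on the log2 scale of the score (adjusted p = 0.12 by limma) and without control replicate 1 (0.13), control replicate 3 (0.11) or cortisol-treated replicate 1 (0.080).

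**Figure D5:**
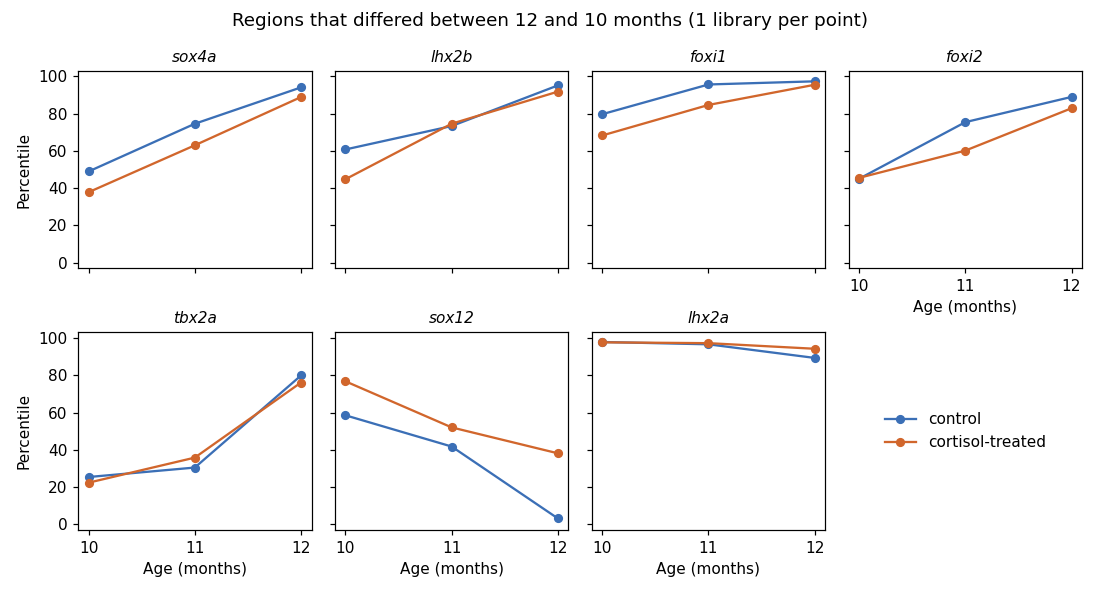
Percentile within the library (y axis) against age in months (x axis) for the 7 regions near developmental genes that differed between 12 and 10 months, with 1 library per point and lines joining the control (blue) and the cortisol-treated (orange) libraries. For sox4a, lhx2b, foxi1, foxi2 and tbx2a both 12-month libraries lie above both 10-month libraries, and for sox12 and lhx2a both lie below.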

How the data were processed

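ATAC-seq was carried out on adult blood, 3 control and 3 cortisol-treated libraries, grouped by their labels. Reads were processed by the authors with FastQC 0.11.8, Trimmomatic 0.32, trimming to 30 bp, Bowtie 1.0.0 against GRCz10, and SAMtools 0.1.18, and mitochondrial alignments were removed. For each library the authors then called peaks (MACS2 2.1.1.20160309, q of 0.001, duplicates kept). The deposited score of a peak is its summit's -log10 q-value times 10, rounded, with no scaling from one library to another. Keeping duplicates can raise the score of a region that was amplified more. The deposited comparison table was made by the authors from pooled libraries, with annotation and signed distance to the nearest start by HOMER 4.8. Its score column holds the authors' own comparison and was not used. For the same reason the part of the naming rule based on that score was not applied, and 1 region per gene was chosen by the highest control percentile instead, after seeing the data. Read totals are not given in the sources used here, so depth is not known. What set the length of the peak lists was not tested.

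Merging overlapping peaks over the 6 libraries gave 153054 regions, and 13835 of these were common to all 6. A region's percentile was the mid-rank of its highest overlapping peak (1 bp or more) among those 13835. Scaffold names spelt differently in the table and the lists were matched. Start positions were derived from region centres and signed distances, and searched within 500 bp. Age was tested with limma 3.58.1 in R 4.3.3 on normal scores, with a linear month term, treatment and moderated variance with a trend, two-sided, with Benjamini-Hochberg adjustment over 13835 regions. On simulated data for this comparison with 13835 regions it recovered 42, 151 and 184 of 200 regions changed by 1, 2 and 3 normal scores, with 1, 7 and 6 false calls. The simulated noise was independent between regions and libraries, with no treatment effect. These counts therefore do not cover calls that come from replicate or list length instead of age. Other steps used Python 3.11.15, numpy 2.4.6, pandas 2.3.3, scipy 1.17.1 and matplotlib 3.10.9.

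Members and lists were chosen with earlier results of these data known. Genes were named where their regions were among the 2 strongest of a family or the 5 weakest of all, lacked a peak in a library, numbered 3 or more per gene, or were promoters on the blood list. The others named were chosen after their values were seen, those in the age comparison because they passed it. Alternatives were other percentile references, overlaps, score limits, promoter definitions and models, and leaving out each library. RefSeq names (assembly GRCz12tu) served only to count family genes, of which 40 of 42 matched by current name and 2 by an older one.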

Additional observations from a re-analysis of the deposited data

How the results depend on the processing

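The median percentile of the 70 regions in controls was 61.6. It was 87.1 against all peaks of each library's own list and 48.7 with list scores of at least 100. With 1 region per gene it was 70.2, but the region kept was the one highest in controls, which favours a higher median. With all 70 regions it ran from 59.7 to 65.1 when 1 library was left out. Promoter minus distal, 10.5, was 3.14 in the own lists and 14.3 for regions within 1000 bp against those beyond 10000 bp, and ran from 9.97 to 11.4 when 1 library was left out. The promoter share was 17.9 to 24.4%. For cortisol-treated minus control, the median difference of 2.90 ran from 2.37 to 5.34 when 1 library was left out, and was -0.44 in the own lists. The count of 6 regions without overlap was 1 in the own lists and ran from 6 to 23 when 1 library was left out. The table's shares were not counted for these settings. The age calls among the 70 regions were again 7 with age as 3 levels, on the log2 scale of the score, and with a peak in at least 4 libraries. Over all regions of these fits the calls were 1751, 1642 and 1351 in turn, the last among 23326 merged regions. The number among the 70 changed when some libraries were left out. Its share was compared with that of all common regions in the main fit only. Closeness to that background was therefore not shown for the other settings. Over all common regions the age calls, 1420, were 398 without cortisol-treated replicate 1, 630 without control replicate 3, 730 without control replicate 1, and 744 without cortisol-treated replicate 3, and ran up to 2067 without control replicate 2. Leaving out a library left 1 library at its age, which limma takes to vary like the others. The causes of these shifts were not tested. Requiring that 50% of the shorter interval overlap changed none of the values it was run on. With the pairing by replicate number, added after seeing the data, 22 regions were higher in the cortisol-treated library of all 3 pairs. The pairing comes from the replicate numbers in the labels, which also stand for age, and the paper describes the control fish as siblings of the treated fish. No paired test was made, because the treatment comparison chose the regions, and no block can be added to the age fit, where the replicate number equals the age.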
